A study of Rattus norvegicus with 8 samples.

Results

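The synaptic vesicle and release machinery of presynaptic terminals was examined as 38 rat genes in 9 classes, from the synapsins and vesicle membrane proteins to the SNAREs, the active zone and endocytosis. A gene belonged to the set when a probe on the array carried a RefSeq accession that maps to its symbol, and all 38 genes had a probe. They carried 52 of the 45598 probes on the array. Of these genes, 37 were above background and tested, through 51 of the 33853 probes tested. *Cplx3*, which encodes a complexin known best from the retina, was above background on 0 of 8 arrays and was not tested.

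RNA came from the *substantia nigra* (SN) of female Sprague Dawley rats, aged 3 months at surgery, and was taken 20 weeks after a unilateral injection into the SN. The AAV-αSyn group received an AAV6 vector for wild-type human α-synuclein at 5.2e+10 vg per µL, and the AAV-Null group received an AAV6-Null vector at 5.3e+09 vg per µL. Vector cargo and titre therefore changed together between the groups and cannot be told apart. The promoter of the vectors is not given in the sources used here. There were 4 arrays per group, each hybridised with 1 sample from the injected side, and all 8 lay on 1 slide and were read in 1 scan. The methods state fewer biological replicates per group than there are arrays here and do not say which arrays they were, and the labels do not tie an array to an animal, so p-values measure the spread between these samples.

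Neurotransmitter is packed into synaptic vesicles, which synapsins tether in reserve and which Rab3 and active zone proteins bring to the release site. There vesicle and plasma membrane SNAREs zipper together under the control of complexin, and synaptotagmin couples fusion to calcium entry. NSF with its SNAP adaptors then takes the SNARE complexes apart, and dynamin, amphiphysin and endophilin retrieve the membrane. α-Synuclein is itself a presynaptic protein that binds vesicle membranes. The SN holds the cell bodies of dopamine neurons, whose main terminals lie in the striatum, and also receives dense GABAergic input. In dissected tissue, fewer cells of a type and less RNA per cell cannot be told apart.

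The share of spots well above background was between 74.8% and 77.5% on the 8 arrays. The dopaminergic markers *Th*, *Slc6a3* and *Ddc* were above background on all 8, so the labelled tissue carried its defining transcripts. AAV-Null replicate 3 stood apart from the others of its group. On this array 12.9% of all probes were more than 0.5 higher, on the log2 scale, than the mean of the other AAV-Null arrays, and 8.49% were more than 0.5 lower. For each of the other 7 arrays, set against the rest of its own group, these shares were 3.5% to 6.17% and 3.75% to 7.69%. The release machinery took part in this. On AAV-Null replicate 3, 10 of the 37 members were more than 0.5 higher, with a median deviation over all members of 0.25, and 2 members were more than 0.5 lower. Members also deviated on other control arrays. On AAV-Null replicate 1, 6 were more than 0.5 lower, where 5.88% of all probes were, and 0 were higher. On AAV-Null replicate 4, 4 were lower and 2 higher.

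The members that deviated most on AAV-Null replicate 3 were *Dnm1* (dynamin 1, the neuronal fission GTPase), higher by 1.44, *Rab3a* (the main Rab GTPase of synaptic vesicles), higher by 1.23, and *Syp* (synaptophysin) and *Cplx1* (complexin 1), each higher by 1.14. *Syn1*, *Rph3a*, *Syt7*, *Sv2c*, *Napa* and *Sh3gl2* were higher by 0.54 to 0.89. In the opposite direction, *Synpr* (synaptoporin, a relative of synaptophysin) was lower by 0.81 and *Unc13c* (Munc13-3) by 0.59. The other probes of *Syp*, *Syn1* and *Rph3a* were higher by 1.27, 0.91 and 0.60 on the same array. Probes of other members disagreed, with *Vamp1* at -0.03 for the brightest probe and 0.86 and 0.76 for the others, *Syt2* at 0.44 and 0.92, and *Syt1* at 0.25 and 0.56, so the count of 10 depends on the probe chosen.

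The 250 bases before the transcription start are shown for the 4 members that were highest on AAV-Null replicate 3, for both members that were lowest on it, and for *Syt1*, the member with the smallest p between the groups. They are from RefSeq on the rat assembly GRCr8, each written 5′ to 3′ on the strand of its gene, and capitals mark the GC box GGGCGG read on either strand. The positions are chr3:36046290-36046539 (minus strand) for *Dnm1*, chr16:18722274-18722523 (minus) for *Rab3a*, chr14:1328823-1329072 (plus) for *Cplx1*, chrX:17536450-17536699 (minus) for *Syp*, chr8:83553823-83554072 (minus) for *Unc13c*, chr15:14182358-14182607 (minus) for *Synpr* and chr7:46244214-46244463 (minus) for *Syt1*.
Dnm1: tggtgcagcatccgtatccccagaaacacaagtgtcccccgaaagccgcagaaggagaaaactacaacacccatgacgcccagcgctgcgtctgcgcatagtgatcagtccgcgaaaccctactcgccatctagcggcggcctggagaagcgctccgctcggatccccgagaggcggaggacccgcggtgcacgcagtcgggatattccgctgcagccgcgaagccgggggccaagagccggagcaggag
Rab3a: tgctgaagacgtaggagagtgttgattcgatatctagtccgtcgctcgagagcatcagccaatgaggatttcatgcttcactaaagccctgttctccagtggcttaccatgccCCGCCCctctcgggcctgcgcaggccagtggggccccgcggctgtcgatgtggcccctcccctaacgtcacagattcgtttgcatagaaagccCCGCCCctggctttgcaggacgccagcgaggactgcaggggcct
Cplx1: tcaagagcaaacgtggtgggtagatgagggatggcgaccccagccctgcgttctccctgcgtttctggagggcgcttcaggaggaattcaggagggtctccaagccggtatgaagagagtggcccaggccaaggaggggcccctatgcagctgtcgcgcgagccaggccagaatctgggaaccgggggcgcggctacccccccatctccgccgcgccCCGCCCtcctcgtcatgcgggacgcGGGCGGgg
Syp: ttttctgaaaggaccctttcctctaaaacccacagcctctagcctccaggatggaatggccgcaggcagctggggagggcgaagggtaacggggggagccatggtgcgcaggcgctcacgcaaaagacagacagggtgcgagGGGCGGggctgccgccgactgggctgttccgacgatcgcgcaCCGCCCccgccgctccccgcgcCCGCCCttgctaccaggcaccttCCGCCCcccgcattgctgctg
Unc13c: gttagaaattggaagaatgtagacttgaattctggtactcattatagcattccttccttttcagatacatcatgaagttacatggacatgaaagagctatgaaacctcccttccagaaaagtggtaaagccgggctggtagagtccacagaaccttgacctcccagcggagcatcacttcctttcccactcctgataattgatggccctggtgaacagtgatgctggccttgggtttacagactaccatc
Synpr: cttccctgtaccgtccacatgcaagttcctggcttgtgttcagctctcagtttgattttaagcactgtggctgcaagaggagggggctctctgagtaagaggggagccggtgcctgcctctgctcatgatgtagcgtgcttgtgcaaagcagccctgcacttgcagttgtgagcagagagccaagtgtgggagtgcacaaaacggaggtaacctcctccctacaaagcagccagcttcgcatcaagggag
Syt1: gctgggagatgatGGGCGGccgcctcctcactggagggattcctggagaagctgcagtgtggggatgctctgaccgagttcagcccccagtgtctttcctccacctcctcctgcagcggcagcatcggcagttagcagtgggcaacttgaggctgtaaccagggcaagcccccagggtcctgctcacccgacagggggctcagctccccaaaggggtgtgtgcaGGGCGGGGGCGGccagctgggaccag

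The promoter table held 34 of the 38 members and lacked *Snap25*, *Syn3*, *Rims2* and *Syt7*. GC made up a median of 64.2% of the members' windows, against 51.2% over all 33469 promoters of the table and 58.8% over the 11113 that belong to genes tested here. A GC box was found in 22 of the 34 (64.7%), in 30.5% of all promoters and in 52.8% of those of the genes tested. The cyclic AMP response element TGACGTCA was found in 4 members (11.8%), *Syn1*, *Napa*, *Sh3gl2* and *Vamp1*, in 1.59% of all promoters and in 2.69% of those of the genes tested. The letters TATAAA, on either strand, were found in 0 members, in 12.9% of all promoters and in 8.49% of those of the genes tested. In the sequences shown, the GC box occurred 4 times for *Syp*, 3 times for *Syt1*, 2 times each for *Rab3a* and *Cplx1* and 0 times for *Dnm1*, *Unc13c* and *Synpr*. These are matches of letters, given as a description.

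None of the release machinery genes passed the Benjamini–Hochberg adjustment between AAV-αSyn and AAV-Null. The adjusted p of limma's test was between 0.675 and 0.997 for the 37 members, and the background was 5 of 33853 probes, or 0.0148%. At an unadjusted p under 0.05 there were 3 members higher in AAV-αSyn, *Syn2*, *Nsf* and *Unc13c*, where the background was 3.31% of probes, and 1 member lower, *Syt1*, where it was 2.32%. Groups of arrays that did not overlap were found for 2 members higher in AAV-αSyn, *Vamp1* and *Nsf*, against 2.57% of probes, and for 1 lower, *Bsn*, against 1.26%. Each of these counts rests on 1 to 3 genes.

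The log2 fold change, AAV-αSyn minus AAV-Null, was above 0 for 15 members and below 0 for 22, with a median of -0.02 where the median over all probes was 0.01. The members' median was 0.06 with array weights and -0.08 without AAV-Null replicate 1. The split depended on the processing, at 10 against 27 under cyclic loess, 21 against 16 with array weights, 9 against 28 without AAV-αSyn replicate 3 and 10 against 27 without AAV-Null replicate 1. It ran from -0.40 for *Syt1* to 0.45 for *Unc13c*. The 95% interval of every tested member lay within 1 of 0, which is a change of 2-fold either way, and that of 26 members lay within 0.5. The standard error was lowest for *Rab3c* (0.062) and highest for *Dnm1* (0.326), and 8 members had a standard error over 0.2.

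**Figure D1:**
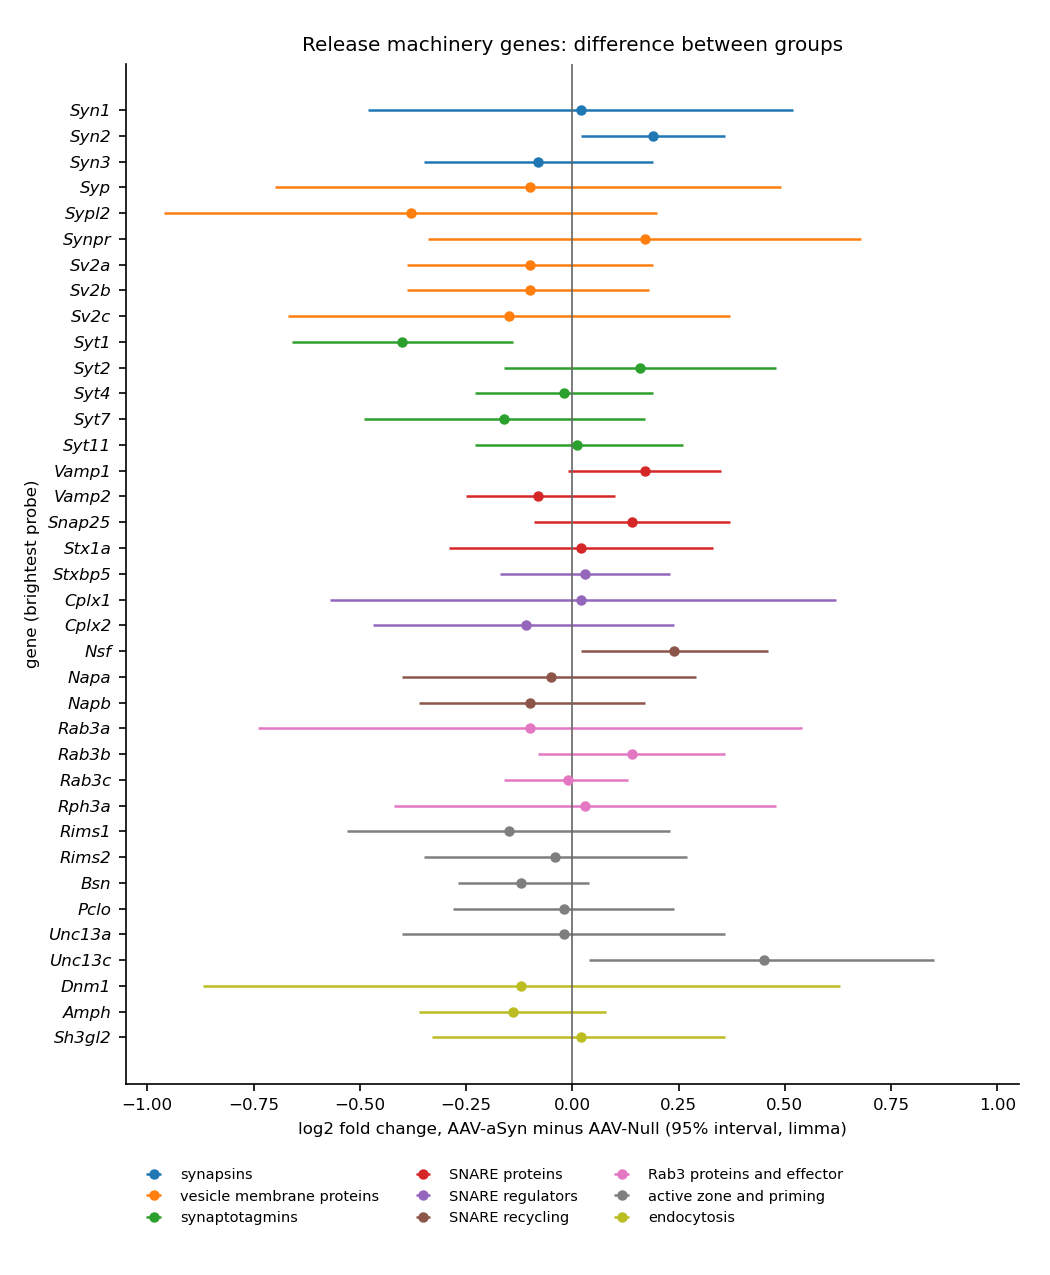
Log2 fold change of each tested gene (x axis, AAV-αSyn minus AAV-Null, log2 scale) with its 95% interval from limma, for the brightest probe of the gene, coloured by class. The points lie between -0.40 (*Syt1*) and 0.45 (*Unc13c*), and the intervals of *Syn2*, *Syt1*, *Nsf* and *Unc13c* leave out 0.

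Among the synapsins, which hold vesicles in the reserve pool, *Syn2* (synapsin II) measured, in log2 intensity and in the order of replicates 1 to 4 used from here on, 12.88, 12.90, 12.94 and 13.06 in AAV-Null and 13.13, 13.19, 13.05 and 13.18 in AAV-αSyn. AAV-Null replicate 4 lay just above AAV-αSyn replicate 3, and the other arrays did not overlap. The log2 fold change was 0.19 (SE 0.0733), with limma's p at 0.0304 before and 0.835 after adjustment. The other probe of *Syn2* gave 0.02, so the difference was not seen on both probes. *Syn1* was higher by 0.02 and *Syn3* lower by 0.08.

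The vesicle membrane proteins had a class median of -0.10, with 5 of 6 below 0 and 0 at an unadjusted p under 0.05, and the median lay between -0.19 (without AAV-Null replicate 4) and -0.03 (without AAV-Null replicate 3) when single arrays were left out. *Sypl2*, a synaptophysin-like protein best known from muscle, had the smallest p of the class (limma, unadjusted p = 0.168). It was 5.69, 6.40, 6.14 and 6.52 on the AAV-Null arrays and 5.51, 6.37, 5.41 and 5.94 on the AAV-αSyn arrays. These values overlapped, and the log2 fold change of -0.38 had a wide interval of -0.96 to 0.20. *Syp* differed by -0.10, and so did *Sv2a* and *Sv2b*, which encode vesicle glycoproteins that bind synaptotagmin. *Sv2c*, the SV2 form of the basal ganglia, differed by -0.15 and *Synpr* by 0.17.

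In the main fit the largest negative difference among the 37 members was that of a synaptotagmin, and it did not pass the adjustment. *Sypl2* was close to it, and was lower than *Syt1* with array weights (-0.48 against -0.36). The same held without AAV-αSyn replicate 2 (-0.57 against -0.35), AAV-Null replicate 1 or AAV-Null replicate 3. *Syt1*, the calcium sensor of fast synchronous release, was 11.10, 10.99, 11.21 and 10.78 in AAV-Null, against 10.61, 10.49, 10.79 and 10.61 in AAV-αSyn. AAV-αSyn replicate 3 and AAV-Null replicate 4 met at nearly the same value, and the other AAV-αSyn arrays were below all AAV-Null arrays. The means were 11.02 ± 0.18 (SD, n = 4) and 10.62 ± 0.13 (SD, n = 4). The log2 fold change was -0.40 (SE 0.112), with limma's p at 0.00726 before and 0.675 after adjustment, and the exact permutation test, two-sided, gave p = 0.0571. The other probe of *Syt1* differed by -0.36 (limma, unadjusted p = 0.062). An unadjusted p under 0.05 was kept in 11 of 11 processing alternatives and 8 of 8 fits that left out an array. The other synaptotagmins differed by 0.16 for *Syt2*, the fast sensor of hindbrain and spinal synapses, by -0.16 for *Syt7*, the slow high-affinity sensor, by -0.02 for *Syt4* and by 0.01 for *Syt11*.

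The SNARE proteins are the fusion machine itself, and 3 of 4 were above 0 with a class median of 0.08, which lay between 0.03 (without AAV-Null replicate 1) and 0.16 (without AAV-Null replicate 4) when single arrays were left out. *Vamp1* (synaptobrevin 1) was 15.88, 15.85, 15.82 and 15.85 on the AAV-Null arrays and 15.90, 16.06, 15.94 and 16.16 on the AAV-αSyn arrays. The groups did not overlap, with AAV-αSyn replicate 1 close to AAV-Null replicate 1. The log2 fold change was 0.17 (SE 0.0784), limma's p was 0.0671 before and 0.916 after adjustment, and the exact permutation test gave p = 0.0286, the smallest that 4 arrays against 4 allow. The other probes of *Vamp1* gave -0.02 and -0.01. *Vamp2*, the main vesicle SNARE of the forebrain, differed by -0.08, *Snap25* by 0.14 and *Stx1a* (syntaxin 1A) by 0.02.

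The SNARE regulators had a class median of 0.02. *Cplx2* had the smallest p of the class, with a log2 fold change of -0.11 (limma, unadjusted p = 0.482), and *Stxbp5* (tomosyn, which competes with synaptobrevin for syntaxin) differed by 0.03. *Cplx1* differed by 0.02 with all arrays, where AAV-Null replicate 3 was far above the other arrays.

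SNARE recycling was represented by the ATPase NSF and its SNAP adaptors. *Nsf* was 13.60, 13.69, 13.70 and 13.53 in AAV-Null, against 13.75, 13.72, 14.05 and 13.97 in AAV-αSyn. The groups did not overlap, with AAV-αSyn replicates 3 and 4 well above the rest. The log2 fold change was 0.24 (SE 0.0965), limma's p was 0.036 before and 0.85 after adjustment, and the exact permutation test gave p = 0.0286. The adaptors *Napa* (α-SNAP) and *Napb* (β-SNAP) were lower by 0.05 and 0.10.

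The Rab3 proteins and their effector rabphilin had a class median of 0.01, which was 0.21 without AAV-Null replicate 3. *Rab3b* had the smallest p, with a log2 fold change of 0.14 (limma, unadjusted p = 0.18). *Rab3c* was the most even member of the set, at 9.66 to 9.70 on the AAV-Null arrays and 9.60 to 9.70 on the AAV-αSyn arrays. *Rab3a* differed by -0.10 and *Rph3a* by 0.03, both with AAV-Null replicate 3 as the highest array.

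In the active zone and priming class, 5 of 6 genes were below 0, while the largest positive difference of the whole set in the main fit was also here. *Unc13c*, a Munc13 priming factor known from cerebellar granule cells, was 9.75, 9.83, 9.24 and 9.91 in AAV-Null, against 9.82, 10.08, 10.25 and 10.37 in AAV-αSyn. AAV-Null replicate 3 was the lowest array, and AAV-αSyn replicate 1 lay below AAV-Null replicates 2 and 4. The log2 fold change was 0.45 (SE 0.176), limma's p was 0.0343 before and 0.841 after adjustment, and the exact permutation test gave p = 0.0857. Without AAV-Null replicate 3 it was 0.30 (limma, unadjusted p = 0.0646). *Bsn* (bassoon, an active zone scaffold) was 13.00, 12.99, 13.01 and 13.15 on the AAV-Null arrays and 12.88, 12.95, 12.89 and 12.94 on the AAV-αSyn arrays. Its groups did not overlap, but the difference was small at -0.12 (SE 0.0679), with limma's p at 0.118 before and 0.947 after adjustment. *Rims1*, which links Rab3 to the active zone, differed by -0.15, *Rims2* by -0.04, the scaffold *Pclo* (piccolo) by -0.02 and the main Munc13, *Unc13a*, by -0.02.

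The endocytosis genes had a class median of -0.12, which was 0.15 without AAV-Null replicate 3 and 0.08 with array weights. *Amph* (amphiphysin) had the smallest p, at -0.14 (limma, unadjusted p = 0.176), and *Dnm1* and *Sh3gl2* (endophilin A1) differed by -0.12 and 0.02.

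**Figure D2:**
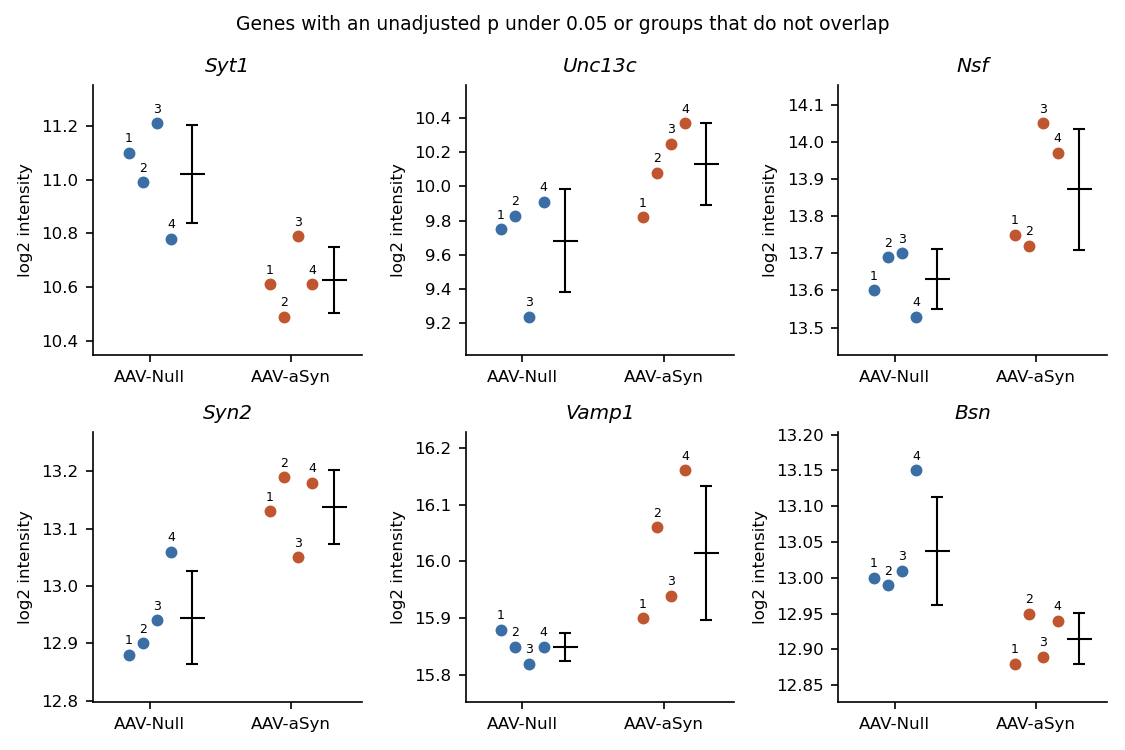
Log2 intensity (y axis, quantile normalized) of the 6 genes with an unadjusted p under 0.05 or with groups that do not overlap, with 4 arrays per group, replicate numbers beside the points, and a bar for the mean ± SD. The y axes do not start at 0 and differ between panels; AAV-αSyn arrays are all above AAV-Null arrays for *Nsf* and *Vamp1* and all below for *Bsn*.

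**Figure D3:**
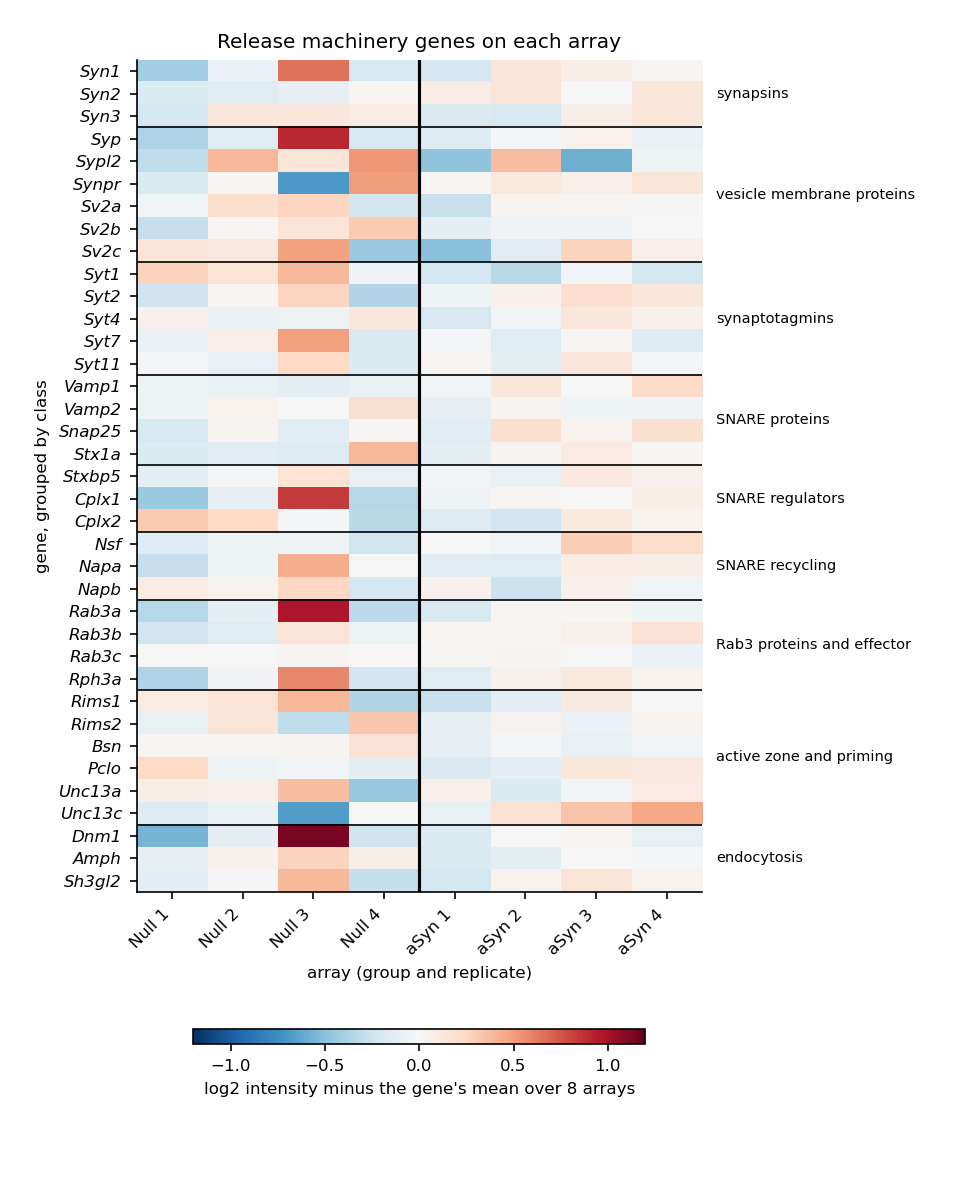
Log2 intensity of each gene on each array minus the gene's mean over the 8 arrays (colour, log2 scale), with genes in rows by class and arrays in columns. AAV-Null replicate 3 is the column with the strongest colours, led by *Dnm1*, *Rab3a*, *Syp* and *Cplx1*.

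Leaving out AAV-Null replicate 3 turned the sign of 7 members, as did leaving out AAV-Null replicate 1 or 4, and leaving out AAV-αSyn replicate 3 turned 6. The members that deviated most on AAV-Null replicate 3 are given here as a description, with no test, since taking the array away had to move them. *Rab3a* was 12.42, 12.64, 13.73 and 12.44 in AAV-Null, against 12.57, 12.77, 12.78 and 12.71 in AAV-αSyn. With this array the difference was -0.10, and without it 0.21. *Cplx1* was 12.57, 12.92, 13.86 and 12.68 against 12.98, 13.04, 13.01 and 13.09, a difference of 0.02 that became 0.31. *Dnm1* was 10.45, 10.89, 12.14 and 10.77 against 10.84, 11.00, 11.03 and 10.92, and its difference went from -0.12 to 0.24. *Syp* went from -0.10 to 0.18 and *Syn1* from 0.02 to 0.24. *Synpr* turned the other way, from 0.17 to -0.03.

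Without this array, 7 members (18.9%, against 8.14% of all probes) had an unadjusted p under 0.05. Of these, 6 were higher (*Syn2*, *Syt2*, *Cplx1*, *Nsf*, *Rab3a* and *Rab3b*) and 1 was lower (*Syt1*), and 3 were shared with the 4 found on all arrays. *Cplx1* and *Rab3a* were among the members highest on the array left out, so their calls are not a separate result. Over all probes the same fit gave more calls too, with 5.23% higher and 2.91% lower. The signs became 18 positive and 19 negative. None passed the adjustment, and the lowest adjusted p was 0.535 (limma). No label sets this array apart.

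**Figure D4:**
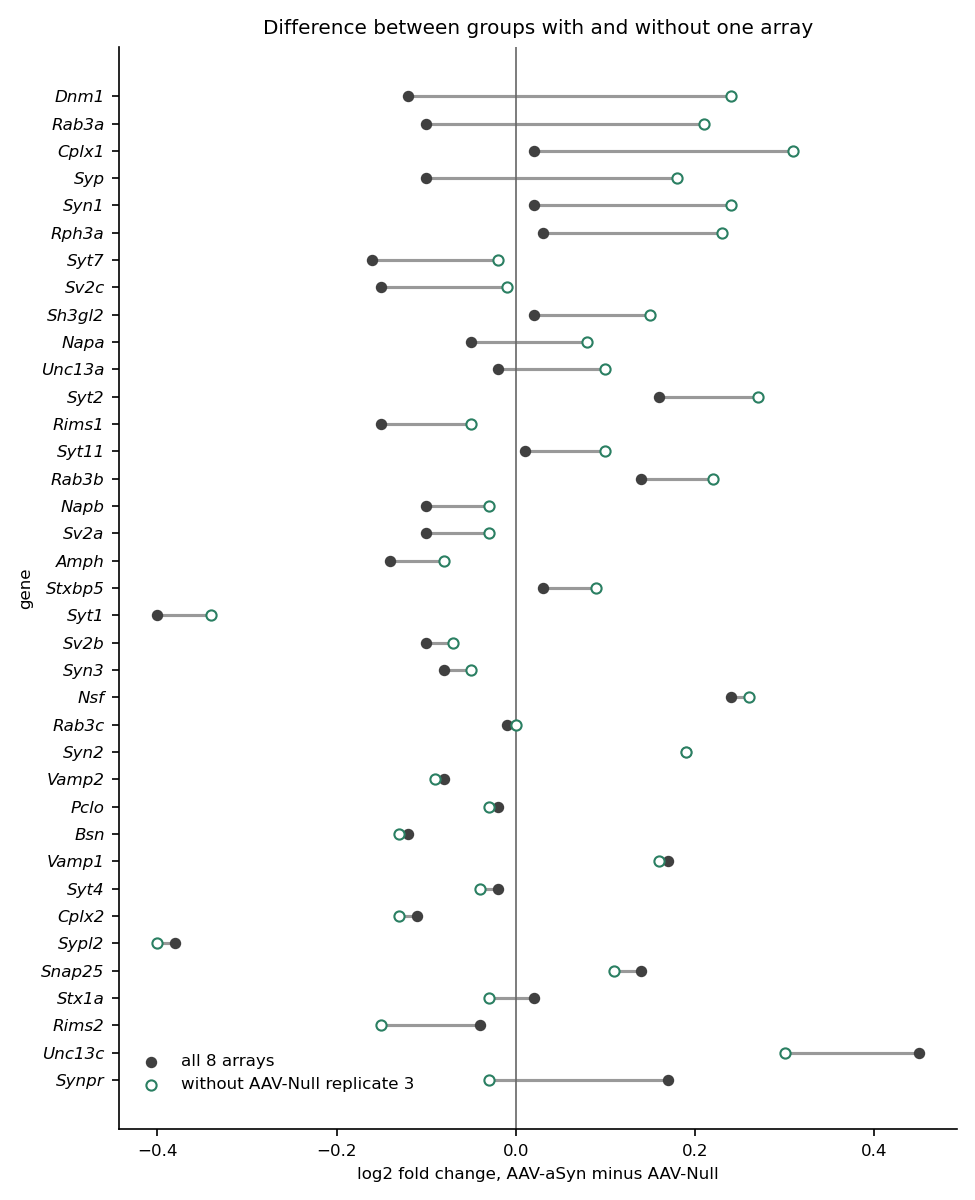
Log2 fold change of each gene (x axis, AAV-αSyn minus AAV-Null) with all 8 arrays (filled) and without AAV-Null replicate 3 (open), ordered by the shift. The largest shifts upward are those of *Dnm1* (-0.12 to 0.24) and *Rab3a* (-0.10 to 0.21), while *Unc13c* moves from 0.45 to 0.30 and *Syt1* from -0.40 to -0.34.

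Other genes of vesicle release, listed separately and not members, were read in the same way. Of 65 listed genes 61 were tested, 38 were above 0 and 23 below, the median was 0.03, and 0 passed the adjustment. For 2 of them (3.28%) the unadjusted p was under 0.05, a smaller share than the 5.64% of all probes, and they are described for completeness. *Syt5*, another synaptotagmin, was 13.16, 13.12, 13.19 and 13.45 on the AAV-Null arrays and 12.76, 12.76, 13.10 and 12.78 on the AAV-αSyn arrays, which did not overlap, a log2 fold change of -0.38 (SE 0.113, limma, unadjusted p = 0.00944). *Syt6* was 5.69, 6.15, 5.86 and 5.59 against 6.09, 6.22, 6.28 and 6.36, a log2 fold change of 0.41 (SE 0.129, limma, unadjusted p = 0.0124). *Sypl1*, a synaptophysin-like protein, did not overlap in the other direction, at 0.27 (limma, unadjusted p = 0.117), with AAV-Null replicate 3 far below the rest at 10.39. The lowest adjusted p of these genes was 0.708.

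Markers of the cells that the dissection could hold were set beside the members. The 10 general neuronal genes had a median log2 fold change of 0.01 and 0 at an unadjusted p under 0.05. Their mean level was 0.26 on AAV-Null replicate 3 and -0.22 to -0.01 on the other AAV-Null arrays, where the members were at 0.21 and -0.12 to 0.01. All 9 dopaminergic genes tested, of 10 listed, were below 0, with a median of -0.33 and 5 at an unadjusted p under 0.05 (*Th*, *Drd2*, *Pitx3*, *Slc6a3* and *Ddc*). *Th* (tyrosine hydroxylase) was lower by 0.52 and *Slc6a3* (the dopamine transporter) by 0.79. The mean level of the dopaminergic list, relative to each gene's mean over the arrays, was 0.05 to 0.46 on the AAV-Null arrays and -0.34 to -0.07 on the AAV-αSyn arrays. The mean level of the members was -0.12 to 0.21 and -0.12 to 0.05. Neither the 9 dopaminergic genes nor any member passed the adjustment.

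Markers of neighbouring regions also differed between arrays. Of the 6 serotonergic genes 5 were above 0, and the level of the list was 0.74 on AAV-Null replicate 3 against -1.19 to -0.73 on the other AAV-Null arrays and 0.06 to 0.92 on the AAV-αSyn arrays. *Fev* in this list was above background on 1 of 4 AAV-Null and 3 of 4 AAV-αSyn arrays, and the other 5 genes on all 8. *Tph2* (tryptophan hydroxylase 2) was higher in AAV-αSyn by 2.35 (limma, unadjusted p = 0.00318, adjusted p = 0.6). Of the 5 hindbrain genes tested 3 had an unadjusted p under 0.05 (60%, against 5.64% of all probes), all higher in AAV-αSyn. These were *Slc6a5*, *Hoxa2* and *Dbh*, and *Dbh* was above background on 0 of 4 AAV-Null and 3 of 4 AAV-αSyn arrays. Only 1 of the 5 was above background on all 8 arrays, so no median is given for them. That gene, *Slc6a5* (the glycine transporter GlyT2), was higher by 1.28 with an adjusted p of 0.0424 (limma). It stayed past the adjustment in 6 of 11 processing alternatives and 1 of 8 fits without an array, but had an adjusted p of 0.396 in the fit blocked by replicate number. The 4 thalamic genes tested had a median of -1.16, with 2 lower at an unadjusted p under 0.05 (*Prkcd* and *Gbx2*). The mean level of this list was highest on AAV-Null replicate 3, at 1.26, but *Slc17a6* in it was highest on AAV-Null replicate 4. The 4 cerebellar genes tested had a median of -0.25. They ran from -1.47 for *Zic1* (limma, unadjusted p = 0.0121) to -0.03 for *Pcp2*, and only *Zic1* had an unadjusted p under 0.05. In the cortical and hippocampal list, *Camk2a* differed by -0.52 (limma, unadjusted p = 0.0375). The lists of GABAergic neurons, astrocytes, oligodendrocytes, microglia, and blood and vessel cells had medians between -0.06 and 0.14 and 0 genes at an unadjusted p under 0.05. The part of these cell types in the members' differences was not tested.

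**Figure D5:**
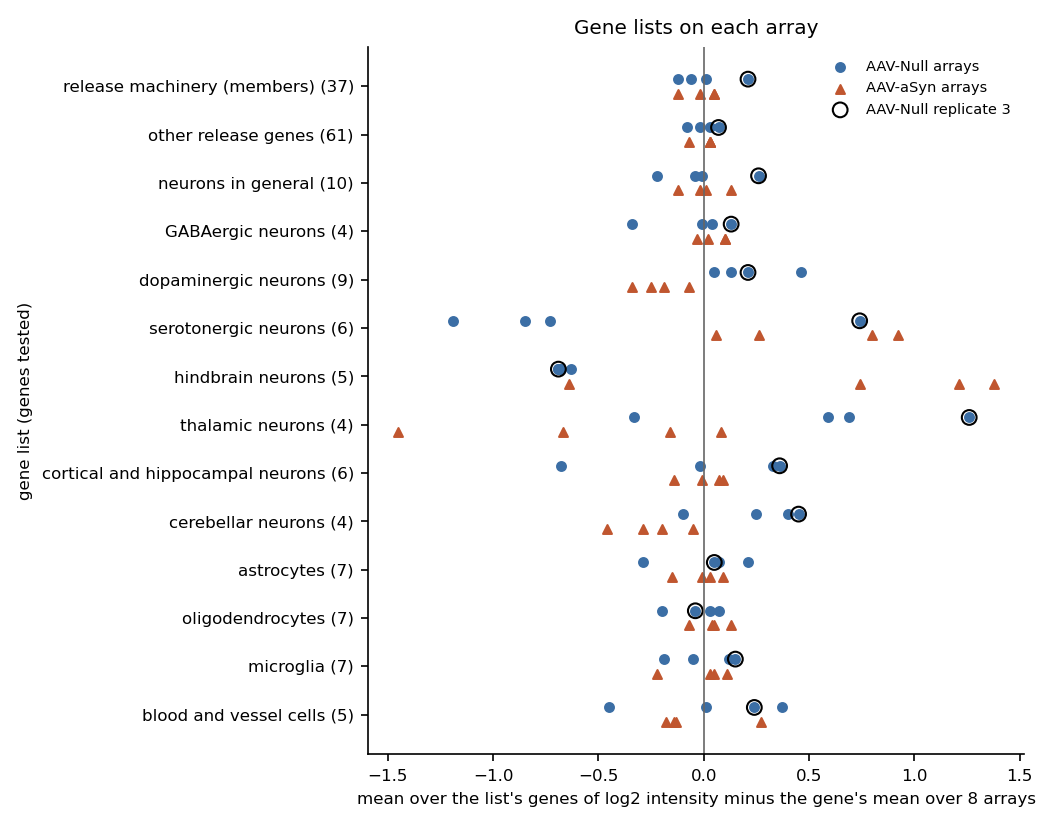
Mean over each list of log2 intensity minus the gene's mean over the 8 arrays (x axis), for AAV-Null arrays (circles) and AAV-αSyn arrays (triangles), with AAV-Null replicate 3 ringed and the number of genes tested in brackets. The groups are separate for dopaminergic neurons (AAV-Null 0.05 to 0.46, AAV-αSyn -0.34 to -0.07) and overlap for the release machinery. The serotonergic, hindbrain, and cortical and hippocampal lists hold genes at background on some arrays.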

How the data were processed

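RNA from the ipsilateral SN in 8 samples was hybridised to 1-colour rat arrays of the Agilent SurePrint G3 type. The authors deposited, per array, the spot intensity that Feature Extraction corrects for background, in arbitrary units, without scaling across arrays. A second deposited table holds log2 values after quantile normalization. The labels give Feature Extraction 11.5.1.1 and the file headers 12.0.3.2.

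The scanner intensities were reprocessed in R 4.3.3 with limma 3.58.1. Control and outlier spots were left out, and a probe was kept when at least 0.5 of its spots were well above background on at least 1 array. Log2 intensities were quantile normalized, and spots of a probe were averaged. The groups, taken from the sample titles, were compared by limma's lmFit and eBayes (two-sided), with Benjamini–Hochberg adjustment across the 33853 probes tested and a threshold of 0.05. The exact permutation test used all splits of the 8 arrays. The number of arrays limits the precision. The fit was tested on simulated data.

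A gene was represented by its brightest probe, named through RefSeq accessions. Full values are given for members with an unadjusted p under 0.05 or with groups that do not overlap, the member with the smallest p is named in each class, and other release genes and markers are named by their smallest p. *Rab3a*, *Cplx1*, *Dnm1*, *Syp*, *Syn1* and *Synpr* were given in further detail after their values were seen. Members, classes and lists were chosen with earlier results of these data known. Alternatives were the 75th percentile, cyclic loess, normexp with an offset of 50, other filters on dim probes, the deposited matrix, an intensity trend with robust variance, array weights, the replicate number or side of the slide as a block, the mean over a gene's probes, and leaving out each array.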

Additional observations from a re-analysis of the deposited data

Results flagged for a closer look

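Within the groups of 4 arrays, 5 of 74 sets of values (37 members in 2 groups) had an array far from the others, where chance gives about 1 in 20, or 3.7. The gap to the nearest array, as a share of the group's range, was 0.84 for *Syn3* on AAV-Null replicate 1 (4.81 against 5.10 to 5.15) and 0.929 for *Sv2a* on AAV-αSyn replicate 1 (13.49 against 13.77 to 13.79). It was 0.928 for *Stx1a* and 0.872 for *Bsn* on AAV-Null replicate 4 (12.69 against 12.13 to 12.17, and 13.15 against 12.99 to 13.01). For *Rab3a* on AAV-Null replicate 3 it was 0.833 (13.73 against 12.42 to 12.64).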

How the results depend on the processing

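No member passed the adjustment in any of the 11 processing alternatives or the 8 fits without an array. Over all probes, 5 passed it, and 9 did with a trend and robust variance, 12 with array weights, 3 with the side of the slide as a block and 3 without any of the AAV-Null arrays in turn (3 to 5 without single arrays). The count of members with an unadjusted p under 0.05 was 4, and 1 to 7 without single arrays, where the share of all probes went from 5.64% to between 4.26% and 8.28%. It was 1 without AAV-αSyn replicate 4 or AAV-Null replicate 1, 2 without AAV-αSyn replicate 3 or AAV-Null replicate 2, and 7 (18.9% of members, 8.14% of probes) without AAV-Null replicate 3. Members whose groups did not overlap numbered 3, with 1 under cyclic loess and 3 to 7 without single arrays (7 without AAV-Null replicate 4). Fewer arrays make this easier for any probe, and its share of all probes went from 3.83% to between 5.31% and 10.5%. The other release genes with an unadjusted p under 0.05 numbered 2, with 9 under array weights (14.8%, against 17% of all probes) and 2 to 8 without single arrays (8, or 13.1% against 8.14%, without AAV-Null replicate 3, and 6, or 9.84% against 8.28%, without AAV-Null replicate 4). The median of the synapsins was 0.02, and -0.12 to 0.19 without single arrays, lowest without AAV-Null replicate 1 and highest without AAV-Null replicate 3. Those of the synaptotagmins (-0.07 to 0.01), SNARE regulators (-0.09 to 0.09), SNARE recycling (-0.09 to 0.08), Rab3 (-0.05 to 0.21) and endocytosis (-0.20 to 0.15) also took both signs, and that of the active zone was -0.07 to -0.02. *Rab3a* turned from -0.10 to 0.21 without AAV-Null replicate 3, and ranged from -0.23 to 0.21 without single arrays. The cause of these shifts was not tested.

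*Syn2* kept an unadjusted p under 0.05 in 8 of 11 processing alternatives and 3 of 8 fits without an array, *Nsf* in 9 and 3, and *Unc13c* in 11 and 3. *Vamp1* was 0.04 when its probes were averaged. Same-numbered arrays share a row of the slide. Their deviations from the group means correlated by 0.14, 0.27, 0.041 and -0.0022, of which 2 of 4 were over 0.1. The numbers were not taken to pair the samples, a choice that these correlations do not settle. With the replicate number as a block, 0 probes passed the adjustment and 3 members (8.11%, against 6.55% of all probes) had an unadjusted p under 0.05, *Sypl2*, *Syt1* and *Unc13c*.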
